A study of Mus musculus with 12 samples.

Results

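Genes of antigen presentation to CD4 T cells, 10 in all, were followed across 6 groups of mouse macrophages. They were the MHC class II chain genes H2-Aa, H2-Ab1 and H2-Eb1, the class II chaperone genes H2-DMa and Cd74, the class II coactivator gene Ciita, and the costimulation genes Cd40, Cd80, Cd86 and Cd83. They were taken by name, with earlier results of these data known, and all 10 were among the 19938 genes with a probe set of their own. Macrophages were collected by peritoneal lavage after thioglycollate injection of C57BL/6 mice that had eaten either a high-fat diet or control chow for 12 weeks, starting at 6 weeks of age. They were then exposed in vitro to red blood cells (RBC) of donors on one or the other diet, or to none. The groups were high-fat macrophages with high-fat RBC, with chow RBC and without RBC, and chow macrophages with high-fat RBC, with chow RBC and without RBC. Each group had 2 Affymetrix Mouse Gene 1.0 ST arrays, which the labels number as animal replicates. Strain, elicitation and lavage were common to all 6 groups, and the labels' protocols name no step that purifies macrophages from the lavage cells.

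Class II molecules display peptides from engulfed material to CD4 T cells. H2-Aa and H2-Ab1 encode the alpha and beta chains of I-A, and H2-Eb1 encodes the beta chain of I-E, whose alpha chain gene is defective in C57BL/6 mice. CD74, the invariant chain, guards the peptide groove on the way to the endosome, and H2-DM, of which H2-DMa encodes the alpha chain, exchanges its remnant for antigenic peptide. CIITA binds no DNA itself but acts through RFX, CREB and NF-Y factors that sit on the X, X2 and Y boxes of class II promoters. CD80 and CD86 engage CD28 and CTLA-4 on T cells, CD40 receives the T cell signal CD40 ligand and signals through TRAF proteins and NF-kappaB, and CD83 protects class II and CD86 from loss from the cell surface.

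The class II promoter boxes could be read directly for 2 of the 10 genes. RefSeq promoter windows (GRCm38.p6, 250 bases before to 50 after the gene start) were given for 4 genes, H2-Aa, H2-Eb1, H2-DMa and Cd80. Windows were searched on both strands for an X box core (GCAAC) followed on the same strand, after 15 to 40 bases, by a Y box (CTGATTGG). This pair was present in 40 of 32851 windows (0.122%), whereas GCAAC alone was in 35.2% and CTGATTGG alone in 4.1%. It was found in the windows of H2-Aa and H2-Eb1 and, among other class II genes, in those of H2-Eb2 and H2-Oa. The spaced pair was not matched in the windows of H2-DMa and Cd80, where GCAAC was matched for both genes but CTGATTGG for neither. The stretches are printed 5′ to 3′ on the gene's strand, with the X box core and the Y box in capitals, because differences of these genes are given below. They lie at chr17:34287855-34287916 on the minus strand (H2-Aa), and on the plus strand at chr17:34305764-34305824 (H2-Eb1), chr17:34325531-34325591 (H2-Eb2) and chr17:34092291-34092352 (H2-Oa).
H2-Aa: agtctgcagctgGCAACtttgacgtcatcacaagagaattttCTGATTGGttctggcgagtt
H2-Eb1: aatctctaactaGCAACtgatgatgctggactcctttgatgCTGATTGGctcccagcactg
H2-Eb2: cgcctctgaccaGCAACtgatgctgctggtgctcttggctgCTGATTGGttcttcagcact
H2-Oa: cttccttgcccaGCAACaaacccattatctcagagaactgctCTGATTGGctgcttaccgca
The boxes were separated by 25 bases in H2-Aa and H2-Oa and by 24 bases in H2-Eb1 and H2-Eb2. An X2 core (TGACG, in 20.8% of windows) was also matched in the H2-Aa stretch, at position -74 from the gene start.

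Values are the deposited log2 signals, differences are on the log2 scale with the standard error (SE) of the limma fit, and calls were made by limma where the p adjusted over all genes by Benjamini-Hochberg was under 0.05. Array medians lay between 4.84 and 4.96. No detection calls were used, so the presence of a cell type could not be read from the level of its markers, and the values of marker lists are given after the genes they moved with. Lower values in such bulk samples can come from fewer cells of a type or from less RNA per cell, and the arrays cannot tell these apart.

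Without RBC, macrophages of high-fat-fed mice had less RNA of the class II chain and chaperone genes, Cd40 and Cd86 than those of chow-fed mice. H2-Aa was 5.35-fold lower, Cd74 6.04-fold lower and Cd40 3.05-fold lower. Of the 10 genes 7 fell and none rose, against 5.82% of all genes called lower and 8.12% called higher in this comparison. The median difference was -1.67 over the 10 genes and -0.01 over all genes. On every one of the 10 genes both high-fat arrays lay below both chow arrays, which 24.4% of all genes did.

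H2-Aa read 8.52 and 8.59 in high-fat macrophages with high-fat RBC, 8.37 and 8.15 with chow RBC, and 7.86 and 8.02 without RBC, against 9.69 and 9.50 in chow macrophages with high-fat RBC, 9.57 and 9.58 with chow RBC, and 10.43 and 10.29 without RBC. Every high-fat macrophage array lay below every chow macrophage array, with the unexposed groups at both ends. Without RBC the difference was -2.42 ± 0.11 (limma adjusted p = 4.4e-09). H2-Ab1, its partner chain, read 8.02 and 7.92, 8.10 and 7.97, and 7.93 and 7.63 in high-fat macrophages with high-fat RBC, chow RBC and no RBC, against 9.27 and 8.99, 9.43 and 9.06, and 10.20 and 10.03 in chow macrophages in the same conditions. The 6 high-fat arrays again stayed below the 6 chow arrays, and without RBC the difference was -2.34 ± 0.14 (limma adjusted p = 6.8e-08). H2-Eb1 read 6.74 and 6.38, 6.43 and 6.70, and 6.74 and 6.25 in high-fat macrophages, against 7.78 and 7.59, 7.79 and 7.53, and 8.68 and 8.67 in chow macrophages, in the same order of conditions. Its high-fat groups overlapped one another, while the unexposed chow arrays stood above all others, and the difference without RBC was -2.18 ± 0.17 (limma adjusted p = 5.8e-07).

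The chaperone genes fell to unequal extents. Cd74 read 8.25 and 8.37 with high-fat RBC, 8.34 and 8.32 with chow RBC, and 7.73 and 8.10 without RBC in high-fat macrophages, against 9.71 and 9.57, 9.79 and 9.59, and 10.53 and 10.49 in chow macrophages. It had the largest difference of the 10 genes without RBC, -2.59 ± 0.12 (limma adjusted p = 6.3e-09), with no overlap between the macrophage diets in any condition. H2-DMa read 6.04 and 6.14, 6.08 and 6.09, and 6.14 and 6.09 in high-fat macrophages, against 6.70 and 6.66, 6.71 and 6.59, and 6.80 and 6.84 in chow macrophages. The high-fat values were nearly level across conditions and all lay below the chow values. Without RBC the H2-DMa difference was -0.71 ± 0.09 (limma adjusted p = 0.00011).

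Ciita, the coactivator, did not pass. It read 4.61 and 4.29, 4.52 and 4.40, and 4.42 and 4.28 in high-fat macrophages with high-fat RBC, chow RBC and no RBC, against 4.47 and 4.48, 4.37 and 4.47, and 4.63 and 4.66 in chow macrophages. Only the unexposed pairs were separated, with the high-fat arrays below. The difference without RBC was -0.29 ± 0.11 (limma adjusted p = 0.12), with a 95% interval of -0.54 to -0.05.

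**Figure D1:**
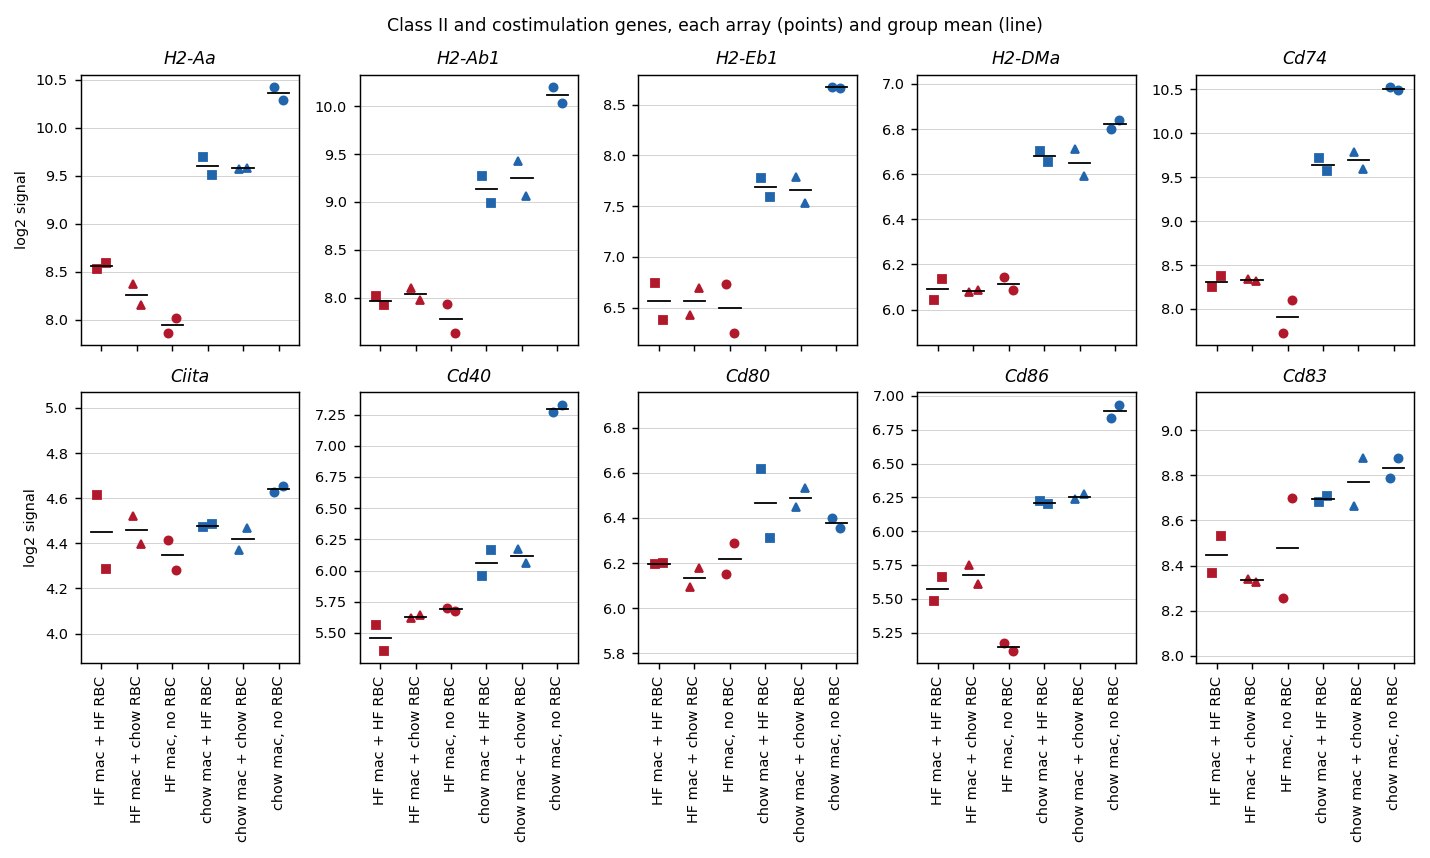
Log2 signal of the 10 genes on each of the 12 arrays (points) with the group mean (line), 1 panel a gene, high-fat macrophage groups on the left and chow macrophage groups on the right of each panel. For H2-Aa, H2-Ab1, H2-Eb1, Cd74, Cd40 and Cd86 the unexposed chow macrophages stand highest, and for Ciita the groups largely share 1 range.

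Among the costimulation genes, Cd40 and Cd86 fell with the high-fat macrophage diet and Cd80 and Cd83 did not pass without RBC. Cd40, the receptor for CD40 ligand, read 5.56 and 5.36 with high-fat RBC, 5.62 and 5.64 with chow RBC, and 5.70 and 5.68 without RBC in high-fat macrophages, against 5.96 and 6.16, 6.18 and 6.06, and 7.27 and 7.33 in chow macrophages. The unexposed chow arrays stood more than 1 log2 unit above every other array, and the difference without RBC was -1.61 ± 0.11 (limma adjusted p = 1.4e-07). Cd86, a CD28 ligand, read 5.48 and 5.66, 5.75 and 5.61, and 5.17 and 5.11 in high-fat macrophages, against 6.22 and 6.20, 6.24 and 6.27, and 6.83 and 6.93 in chow macrophages. Exposed arrays stood above unexposed ones in high-fat macrophages and below them in chow macrophages, with no overlap, and the difference without RBC was -1.74 ± 0.10 (limma adjusted p = 3.5e-08).

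Cd80, the other CD28 ligand, read 6.20 and 6.20, 6.09 and 6.18, and 6.15 and 6.29 in high-fat macrophages, against 6.62 and 6.31, 6.45 and 6.53, and 6.40 and 6.35 in chow macrophages. The high-fat arrays lay just below the chow arrays, and the difference without RBC was -0.16 ± 0.11 (limma adjusted p = 0.43). A second Cd80 probe set, which was not used, read 5.82 and 5.84 in unexposed high-fat macrophages and 5.57 and 5.73 in unexposed chow macrophages, the opposite order. Cd83 read 8.37 and 8.53, 8.34 and 8.33, and 8.26 and 8.70 in high-fat macrophages, against 8.68 and 8.71, 8.66 and 8.88, and 8.79 and 8.88 in chow macrophages. One unexposed high-fat array, at 8.70, reached the chow range, and the difference without RBC was -0.35 ± 0.13 (limma adjusted p = 0.1). Without that array Cd83 passed (adjusted p = 0.0082).

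In chow macrophages, exposure to RBC went with a fall of H2-Aa, H2-Ab1, H2-Eb1, Cd74, Cd40 and Cd86. Cd40 fell the most, 2.31-fold, and of the 10 genes 6 fell and none rose, against 4.51% of all genes called lower and 8.22% called higher. The median difference was -0.71 over the 10 genes and -0.03 over all genes. On 8 of the 10 genes all 4 exposed arrays lay below both unexposed arrays, which 20.6% of all genes did. The changes, exposed minus unexposed, were -0.77 ± 0.10 for H2-Aa (limma adjusted p = 0.00013), -0.93 ± 0.12 for H2-Ab1 (0.00022), -0.999 ± 0.14 for H2-Eb1 (0.00038) and -0.84 ± 0.11 for Cd74 (0.00014). Cd40 changed by -1.21 ± 0.09 (limma adjusted p = 1.3e-06) and Cd86 by -0.65 ± 0.09 (2e-04). H2-DMa (-0.16 ± 0.08) and Ciita (-0.19 ± 0.10) did not pass, although their exposed arrays lay below the unexposed ones (limma adjusted p = 0.23 and 0.22). Cd80 (0.10 ± 0.10, 95% interval -0.11 to 0.31) and Cd83 (-0.10 ± 0.12, 95% interval -0.35 to 0.15) overlapped between exposed and unexposed arrays.

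In high-fat macrophages, exposure moved H2-Aa and Cd86 the other way. These 2 of the 10 genes rose and none fell, against 0.878% of all genes called higher and 0.201% called lower, and the median difference was 0.09 over the 10 genes and -0.00 over all genes. H2-Aa changed by 0.47 ± 0.10 (limma adjusted p = 0.031) and Cd86 by 0.48 ± 0.09 (limma adjusted p = 0.013). On both genes every exposed array lay above both unexposed arrays, as it did for Cd74, which did not pass (0.41 ± 0.11, limma adjusted p = 0.11). Such separation upward was found for 8.87% of all genes. The exposed Cd40 arrays lay below the unexposed ones, as 8% of all genes did. H2-Ab1 (0.22 ± 0.12), H2-Eb1 (0.07 ± 0.14), Ciita (0.11 ± 0.10), H2-DMa (-0.03 ± 0.08), Cd80 (-0.05 ± 0.10), Cd83 (-0.09 ± 0.12) and Cd40 (-0.15 ± 0.09) did not pass. With array weights the adjusted p became 0.18 for H2-Aa and 0.075 for Cd86, without unexposed high-fat replicate 1 it was 0.3 and 0.073, and without replicate 1 of high-fat macrophages given chow RBC it was 0.12 and 0.058. Both calls also ended without replicate 2 of high-fat macrophages given high-fat RBC (0.097 and 0.051), that of H2-Aa ended without replicate 1 of that group (0.056) or either array of chow macrophages with chow RBC (both 0.051), and Cd74 passed without unexposed high-fat replicate 2 (0.59, adjusted p = 0.017).

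**Figure D2:**
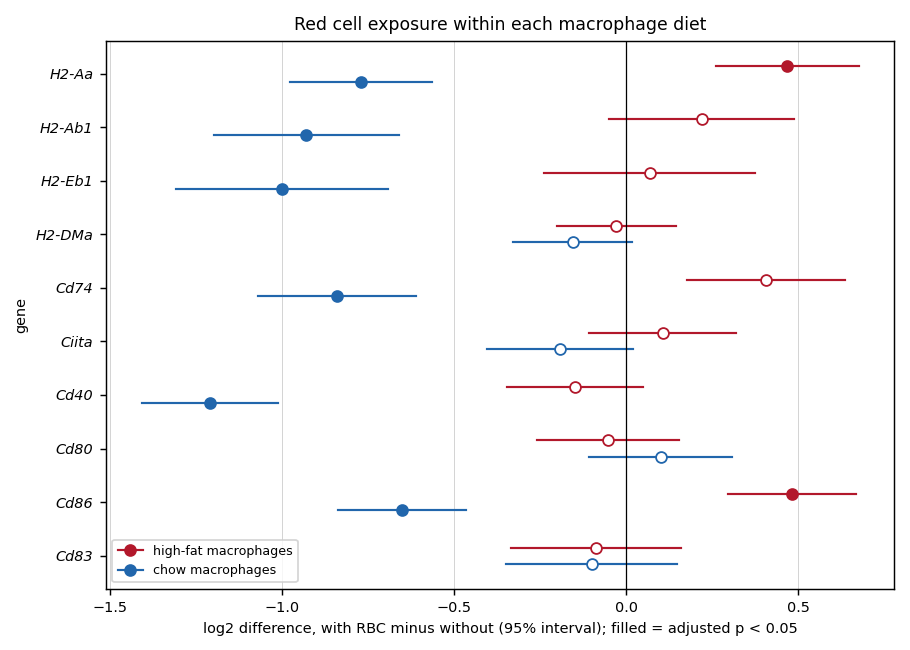
Difference on the log2 scale, RBC-exposed minus unexposed, with its 95% interval for each of the 10 genes in high-fat and in chow macrophages. H2-Aa, H2-Ab1, H2-Eb1, Cd74, Cd40 and Cd86 lie below 0 in chow macrophages, and H2-Aa, Cd86 and Cd74 lie above 0 in high-fat macrophages, of which Cd74 did not pass after adjustment.

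The response to RBC differed between the macrophage diets for 6 of the 10 genes, all with the higher value in high-fat macrophages, against 2.57% of all genes called in that direction and 3.1% in the other. The response in high-fat macrophages minus that in chow macrophages was 1.24 ± 0.14 for H2-Aa (limma adjusted p = 8.4e-05), 1.15 ± 0.18 for H2-Ab1 (0.0013), 1.07 ± 0.20 for H2-Eb1 (0.0061) and 1.25 ± 0.15 for Cd74 (2e-04). It was 1.06 ± 0.13 for Cd40 (limma adjusted p = 0.00021) and 1.13 ± 0.12 for Cd86 (7.3e-05). Ciita (0.30 ± 0.14, limma adjusted p = 0.28), H2-DMa (0.13 ± 0.11), Cd80 (-0.15 ± 0.14) and Cd83 (0.01 ± 0.16) did not pass. The median was 1.06 over the 10 genes and 0.02 over all genes. This contrast shares its arrays with the comparisons above and below: it is equally the macrophage diet difference with RBC minus that without RBC.

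With RBC, the macrophage diets lay closer together for those 6 genes but still apart. Of the 10 genes 8 were lower in high-fat macrophages and none higher, against 2.65% of all genes called lower and 2.2% called higher, with a median of -0.59 over the 10 genes and 0.01 over all genes. On 9 of the 10 genes, Ciita being the exception, all 4 high-fat arrays lay below all 4 chow arrays, which 6.77% of all genes did. The difference was -1.18 ± 0.08 for H2-Aa (limma adjusted p = 4e-07), -1.19 ± 0.10 for H2-Ab1 (6.2e-06), -1.11 ± 0.12 for H2-Eb1 (4.4e-05) and -1.35 ± 0.09 for Cd74 (3e-07). H2-DMa differed by -0.58 ± 0.07 (limma adjusted p = 8.7e-05), Cd40 by -0.54 ± 0.08 (0.00053) and Cd86 by -0.61 ± 0.07 (0.00011). Cd80 passed at -0.31 ± 0.08 (limma adjusted p = 0.036), a call that ended when its 2 probe sets were averaged (-0.24, adjusted p = 0.079) and on leaving out any array other than the unexposed high-fat arrays and replicate 2 of chow macrophages with high-fat RBC (adjusted p up to 0.18). Cd83 missed it at -0.34 ± 0.09 (limma adjusted p = 0.056), and Ciita differed by 0.01 ± 0.08.

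**Figure D3:**
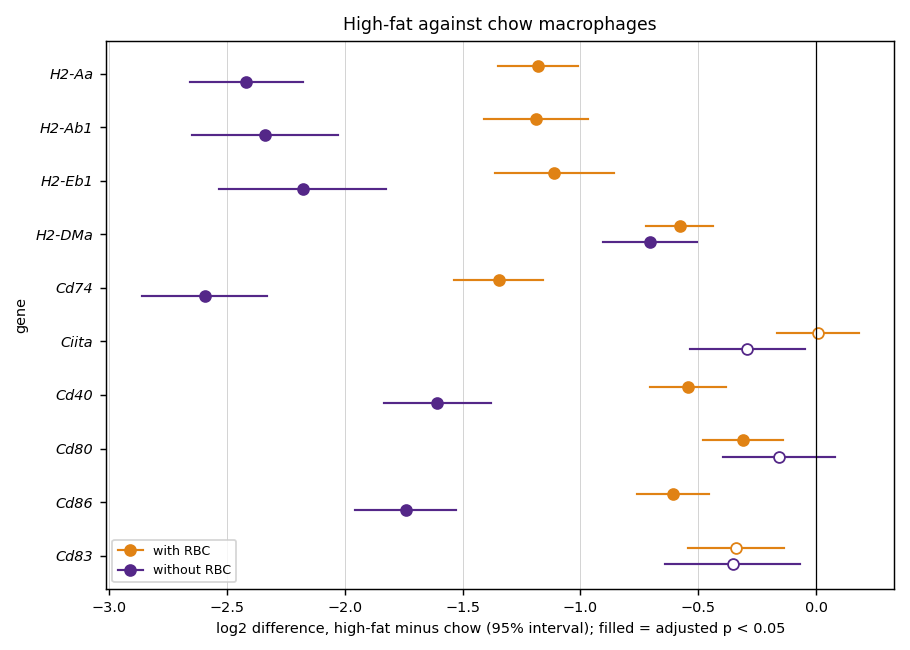
Difference on the log2 scale, high-fat minus chow macrophages, with its 95% interval for each of the 10 genes, with RBC and without RBC. For H2-Aa, H2-Ab1, H2-Eb1, Cd74, Cd40 and Cd86 the difference with RBC is nearer to 0 than that without RBC, and for H2-DMa, Cd80 and Cd83 the intervals of both conditions overlap.

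The diet of the RBC donor gave no call among the 10 genes. In high-fat macrophages the differences between high-fat and chow RBC ran from -0.17 (Cd40) to 0.30 (H2-Aa), with 0 genes of 10 called by limma, against 0.0251% of all genes. H2-Aa was the 1 gene with an unadjusted p under 0.05 (0.30 ± 0.11 in the limma fit, adjusted p = 1), where 3.96% of all genes had one, and its 95% interval was 0.06 to 0.54. In chow macrophages the differences ran from -0.12 (H2-Ab1) to 0.06 (Ciita), with 0 genes of 10 called or under an unadjusted 0.05, against 0% and 2.78% of all genes. The contrast of these responses between macrophage diets likewise had 0 of 10 genes called or under an unadjusted 0.05, against 0% and 3.6% of all genes.

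Ordered by group mean, H2-Aa, H2-Ab1, H2-Eb1, Cd74 and Cd86 were lowest in unexposed high-fat macrophages and highest in unexposed chow macrophages, with the 4 exposed groups between. No 2 groups that differed in RBC diet alone were called apart on any of the 10 genes. Cd40 departed from this order, being lowest in high-fat macrophages with high-fat RBC. Over the 12 arrays H2-Aa and Cd74 correlated at r = 0.990, H2-Ab1 and H2-Eb1 at 0.986 and Cd86 and Cd74 at 0.973, whereas Ciita correlated with the class II genes at 0.426 to 0.631. Ciita had the lowest signal of the 10 genes, which could not be told from background. These correlations describe 6 pairs of arrays and carry no test.

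The genes outside the list with the most similar profile over the 12 arrays, by Pearson's r, were Slpi for both H2-Aa (0.994) and Cd74 (0.995). Slpi encodes a secreted leukocyte protease inhibitor. Next came Ccl5, a chemokine, and AA467197 for H2-Aa (0.988 and 0.987), and AW112010 and H2-M2 for Cd74 (0.994 and 0.991). H2-Ab1 was followed by Clmp (0.995), Bst2 and Cfb (both 0.988), and H2-Eb1 by Creb5 (0.986), Tmem178 (0.985) and Bst2 (0.983). Bst2 encodes tetherin, an interferon-induced inhibitor of virus release, and Cfb encodes complement factor B. Cd86 was followed by the interferon-induced genes Oas2 (0.992) and Usp18 (0.985) and by the chemerin receptor gene Cmklr1 (0.984). The nearest profiles to H2-DMa were those of Aif1 (0.990), Saa3 (0.988) and Casp4 (0.988), and those to Cd40 were Flrt3 (0.984), Pcdh7 (0.983) and Tarm1 (0.981). Cd80 had looser neighbours, Cd59a (0.924), Cblb (0.902) and Mrpl1 (0.893).

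Of 17 measured genes for class II transcription, peptide editing, proteases and turnover, 1 rose and 1 fell in unexposed high-fat against chow macrophages, with a median of 0.04, and 2 rose and 2 fell with exposure of chow macrophages, with a median of 0.03. These counts lie near the shares of all genes called in the same comparisons (8.12% higher and 5.82% lower, and 8.22% higher and 4.51% lower). The gene that rose without RBC was Marchf8 (0.47 ± 0.10, limma adjusted p = 0.0066). With exposure of chow macrophages Marchf8 (0.34 ± 0.09, limma adjusted p = 0.025) and Lgmn (0.325 ± 0.10, 0.047) rose. H2-Ob fell (-0.36 ± 0.10, 0.03), as did H2-Eb2. None of these calls held in every alternative fit. The interaction called none of the 17 genes, against 2.57% of all genes called higher and 3.1% called lower. H2-Eb2, a beta chain gene beside H2-Eb1 whose promoter stretch is printed above, differed by -0.46 without RBC (limma adjusted p = 0.046) and by -0.575 ± 0.12 with exposure of chow macrophages (adjusted p = 0.0067). Without unexposed chow replicate 2 both calls ended (adjusted p = 0.38 and 0.16), and the macrophage diet call ended in 8 other fits that left out 1 array. H2-Eb2 read 4.71 and 5.05 in unexposed chow macrophages and 4.48 and 4.37 in unexposed high-fat macrophages. Like Ciita, which had a similar level, it could not be told from background, so its smaller differences cannot be set against those of H2-Aa and H2-Eb1. H2-Oa, an inhibitor of H2-DM with the same promoter arrangement and named here for that, differed by -0.45 ± 0.18 without RBC (limma adjusted p = 0.12). The genes of the RFX subunits (Rfx5, Rfxap, Rfxank) and NF-Y subunits (Nfya, Nfyb, Nfyc), named for their role, were not called in the 2 macrophage diet comparisons, the 2 exposure comparisons or their interaction.

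Most genes that signal downstream of CD40 were called where Cd40 was, except between macrophage diets with RBC. The comparisons with such calls all use the same 2 unexposed chow arrays, so they are not separate observations. Of 12 measured CD40 signalling genes 11 fell and 1 rose in unexposed high-fat against chow macrophages (median -0.70), against 5.82% and 8.12% of all genes. With exposure of chow macrophages 9 fell and none rose (median -0.51), against 4.51% and 8.22% of all genes. In high-fat macrophages exposure called none (median 0.23), against 0.878% of all genes called higher and 0.201% called lower. The interaction called 9, all higher, against 2.57% of all genes. Traf1, an adaptor induced by NF-kappaB, read 4.84 and 4.98, 4.96 and 4.996, and 4.62 and 4.46 in high-fat macrophages with high-fat RBC, chow RBC and no RBC, against 5.10 and 5.19, 5.43 and 5.22, and 7.32 and 7.13 in chow macrophages. The unexposed chow arrays stood alone. Traf1 differed by -2.69 ± 0.11 between macrophage diets without RBC (limma adjusted p = 1.6e-09) and by -1.99 ± 0.10 with exposure of chow macrophages (2e-08). Nfkb2 (-1.11), Birc3 (-1.31) and Relb (-1.42), of the noncanonical NF-kappaB arm, also fell between macrophage diets without RBC. With RBC, none of the 12 genes was called between macrophage diets (median -0.05), against 2.65% of all genes called lower and 2.2% called higher. At such shares a count of none says little about a list of 12 genes.

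Of 17 other costimulatory and coinhibitory ligand genes, 7 fell and 2 rose between macrophage diets without RBC (median -0.29). The shares of all genes there were 5.82% lower and 8.12% higher. With exposure of chow macrophages 6 fell and 1 rose (median -0.19), against 4.51% and 8.22% of all genes. The interaction called 4, all higher, against 2.57% of all genes. Icam1, an adhesion ligand of LFA-1, read 6.63 and 6.57, 6.68 and 6.79, and 6.50 and 6.46 in high-fat macrophages, against 6.22 and 6.40, 6.23 and 6.33, and 8.08 and 8.13 in chow macrophages. Only the unexposed chow arrays stood above 8, and exposure changed Icam1 by -1.81 ± 0.09 in chow macrophages (limma adjusted p = 1.8e-08). With RBC Icam1 was higher in high-fat than in chow macrophages (0.37, adjusted p = 0.0059), the reverse of the class II genes. Cd274, encoding the inhibitory ligand PD-L1, was lower in high-fat macrophages without RBC (-1.30 ± 0.10, limma adjusted p = 5.9e-07) and with RBC (-0.64).

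Of 11 genes on the route from interferon gamma to Ciita, 6 fell and none rose between macrophage diets without RBC (median -0.37). With exposure of chow macrophages 4 fell and none rose (median -0.16). The shares of all genes called lower were 5.82% and 4.51%. Irf1, a factor that drives the interferon-inducible Ciita promoter, read 6.35 and 6.51, 6.69 and 6.66, and 6.20 and 6.20 in high-fat macrophages, against 6.77 and 7.89, 6.90 and 6.83, and 8.11 and 7.94 in chow macrophages. One array of chow macrophages with high-fat RBC, at 7.89, stood with the unexposed chow arrays. Irf1 differed by -1.83 ± 0.24 between macrophage diets without RBC (limma adjusted p = 9.7e-05) and by -0.93 ± 0.20 with exposure of chow macrophages (0.0084). The exposure call ended without unexposed chow replicate 1 (0.082) or 2 (0.056). Irf4 fell in both comparisons, by 1.28 and by 0.82 on the log2 scale.

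Some B cell genes moved with the class II genes, which B cells also express. Of 11 measured B cell markers, 6 fell and 1 rose between macrophage diets without RBC (median -0.33), against 5.82% and 8.12% of all genes. With exposure of chow macrophages 4 fell, against 4.51% of all genes. None was called with exposure of high-fat macrophages, where only 0.878% of all genes were called higher and 0.201% lower. The mean of the 11 markers ranged from 4.87 to 4.96 in unexposed high-fat macrophages, against 5.43 to 5.57 in unexposed chow macrophages, and from 4.90 to 4.97 in exposed high-fat macrophages, against 5.14 to 5.29 in exposed chow macrophages. Cd79a, a B cell receptor subunit, read 3.93 and 3.94, 3.61 and 3.92, and 3.65 and 3.29 in high-fat macrophages, against 4.69 and 4.86, 5.25 and 5.27, and 5.38 and 5.94 in chow macrophages. All high-fat arrays lay below all chow arrays, with a difference of -2.19 ± 0.17 without RBC (limma adjusted p = 6.4e-07). Cd79b, the other receptor subunit, differed by -1.60 ± 0.12 and Ms4a1, encoding CD20, by -1.35 ± 0.14 in the same comparison. Cd22, an inhibitory B cell receptor, was higher in high-fat macrophages without RBC (0.65 ± 0.10, limma adjusted p = 0.00071) and with RBC (0.30, adjusted p = 0.03). Cd37 (-0.13 ± 0.11) and Vpreb3 (0.01 ± 0.12) did not pass without RBC. With exposure of chow macrophages, Ms4a1 changed by -0.91 ± 0.12, Cd79b by -0.68 ± 0.11 and Cd79a by -0.64 ± 0.15 (limma adjusted p = 0.01, and 0.24 without unexposed chow replicate 2). The part of B cells in the class II differences was not tested.

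Macrophage and neutrophil genes moved as well. For the counts below, 8.12% of all genes were called higher and 5.82% lower between macrophage diets without RBC. With exposure, 8.22% were called higher and 4.51% lower in chow macrophages, and 0.878% higher in high-fat macrophages. Of 9 measured macrophage markers, 4 fell and 2 rose between macrophage diets without RBC, with Fcgr1, a high-affinity IgG receptor, at -1.81 ± 0.11 (limma adjusted p = 4e-08), Cd14 at -1.82 and Adgre1, encoding F4/80, at -1.17, while Mrc1 (0.78) and Mertk (0.51) were higher. Their mean level ranged from 9.53 to 9.56 in unexposed high-fat macrophages, against 9.98 to 9.997 in unexposed chow macrophages, and from 9.82 to 9.85 in exposed high-fat macrophages, against 10.02 to 10.12 in exposed chow macrophages. With exposure of chow macrophages, Adgre1 (-0.68 ± 0.09, limma adjusted p = 0.00031) and Csf1r (-0.41 ± 0.09, 0.0061) fell and Mertk (0.66) and Mrc1 (0.54) rose, while Fcgr1 stayed between 8.26 and 8.69. With exposure of high-fat macrophages, where H2-Aa and Cd86 rose, Cd14 (1.41 ± 0.12, limma adjusted p = 1.6e-05) and Fcgr1 (0.84 ± 0.09, 2e-04) rose as well. Of 9 neutrophil markers, 4 rose with exposure of high-fat macrophages and 5 with exposure of chow macrophages, S100a9 the most (6.28 ± 0.12 and 5.24 ± 0.12). The part of these changes in the class II and costimulation results was not tested.

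**Figure D4:**
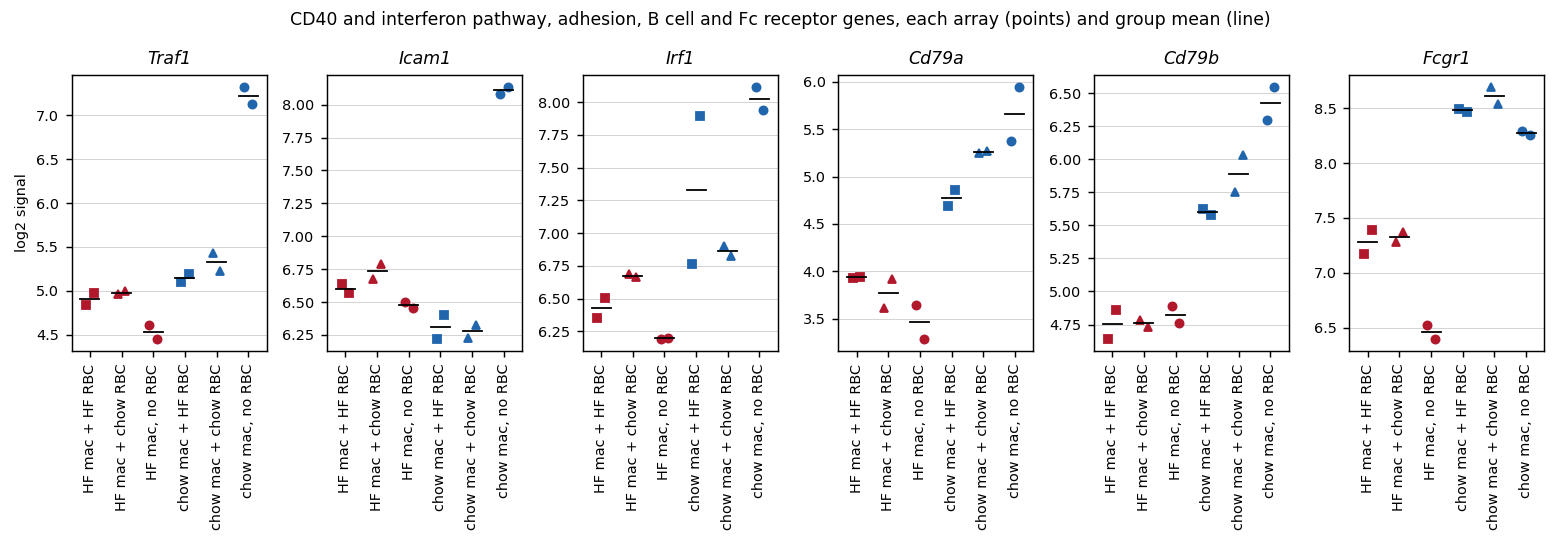
Log2 signal of Traf1, Icam1, Irf1, Cd79a, Cd79b and Fcgr1 on each of the 12 arrays (points) with the group mean (line), high-fat macrophage groups on the left of each panel and chow macrophage groups on the right. Traf1 and Icam1 stand alone in unexposed chow macrophages, Cd79a and Cd79b are lower on every high-fat array than on every chow array, and Fcgr1 is separated by macrophage diet with little change by exposure in chow macrophages.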

How the data were processed

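The authors deposited log2 signals per probe set for 12 arrays in 6 groups of 2. Per the labels' protocols, RNeasy was used for isolation, WTA-Ovation FFPE V2 for amplification and the Encore module for biotin labelling. How probe sets were summarized and normalized is not stated in the labels, and the range of the values gave the log2 scale. Without detection calls, signal over background could not be judged, and precision is limited by the number of arrays. Of 35557 probe sets, 35556 had values, and 21789 were listed for a single gene symbol. Where a gene had more than 1 probe set (999 genes), the brightest by its mean over all arrays stood for it, which left 19938 genes, with no filter on low values. Probe sets listed for several genes (1621) were left out.

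In limma 3.58.1 (R 4.3.3), lmFit took a mean for each group from all 12 arrays, and eBayes moderated the variances (prior df 7.69 beside 6 residual df). P-values of the 8 contrasts were adjusted over all genes by Benjamini-Hochberg. With RBC, groups of both RBC diets were averaged. The comparisons of exposure, of macrophage diet and their interaction share arrays. The 10 genes and the 12 supporting lists (138 genes, 126 measured) were chosen with earlier results of these data known. All 10 genes are named in each contrast. Up to 4 called members are named per list and contrast, with the 3 most similar genes for each of the 10 that had a call, and others as said in the text. H2-Oa, the RFX and NF-Y genes and the marker genes fall outside that rule. The labels do not say whether equal replicate numbers in different groups mark the same animal. Correlations of the deviations of same-numbered samples ran from -0.226 to 0.344 over 15 pairs of groups. Of these 2 were above 0.1, both among the 6 pairs of groups of one macrophage diet. This does not settle whether animals were shared, and the numbers were not taken as pairs in the main fit. Alternatives were quantile normalization, removal of the dimmest 33.3% of genes, robust eBayes with a trend on intensity, weighted arrays, a replicate block, averaged probe sets, a fold minimum, fits of the compared arrays only and leaving out each array. The fit was run on simulated data with independent noise and added shifts, which had no shared animals or mixed cells and so cannot speak to these.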

Additional observations from a re-analysis of the deposited data

Results flagged for a closer look

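By the interaction of the limma fit, the response to RBC differed between high-fat and chow macrophages for the genes with values below. All had the same direction, and these are values with no explanation. Marker lists other than that of B cells are not included. Of their genes, Mrc1, Mmp8, Fscn1 and Gata6 were called in the other direction, and some others in the same one. Over all genes 2.57% were called higher and 3.1% lower. Among the class II and costimulation genes the difference of responses, high-fat minus chow macrophages, was 1.24 for H2-Aa, 1.15 for H2-Ab1, 1.07 for H2-Eb1, 1.25 for Cd74, 1.06 for Cd40 and 1.13 for Cd86. Among the genes of CD40 signalling it was 2.40 for Traf1, 1.15 for Nfkb2, 1.42 for Relb and 1.15 for Birc3. The other T cell ligands had 2.00 (Icam1), 0.66 (Cd274), 0.71 (Tnfrsf14) and 0.70 (Pvr), the interferon gamma route had 0.92 (Irf4), 0.64 (Jak2) and 1.29 (Irf1), and the class I pathway had 0.57 (Tapbp) and 0.68 (Tap1). The B cell genes Ms4a1, Cd79a and Cd79b had 0.90, 1.03 and 0.61, and the calls of Cd79a, Cd79b, Irf1, Jak2, Tap1, Tapbp and Pvr were lost when some single arrays were left out. Groups of 2 arrays are too small to look for single arrays far from the rest of their group.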

How the results depend on the processing

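With 2 arrays per group, the counts of genes that fell in chow macrophages with exposure (6 to 6 on leaving out each array), that passed the interaction (6 to 6), and that were lower in high-fat macrophages without RBC (7 to 8) or with RBC (7 to 9) stayed within 1.5 times their counts. The 2 genes that rose with exposure of high-fat macrophages became 0 with array weights, 0 with the compared arrays only and 0 with a 1.5-fold minimum, and ranged from 0 to 3 on leaving out each array (0 without replicate 1 of unexposed high-fat macrophages, replicate 1 of those with chow RBC or replicate 2 of those with high-fat RBC). With that minimum 5 genes, not 8, were lower in high-fat macrophages with RBC. The adjusted p of H2-Aa for exposure of high-fat macrophages was 0.14 with the compared arrays only and 0.031 to 0.3 on leaving out arrays, and that of Cd86 was 0.097 and 0.014 to 0.073. The calls of Cd83 with RBC (adjusted p = 0.018 with array weights) and H2-DMa in exposed chow macrophages (0.043 after quantile normalization) were gained. Differences that turned sign were not called in either setting. Quantile normalization gave -0.0018 for Cd80 with exposure of chow macrophages, -0.0309 for Cd83 in the interaction and -0.0011 for Ciita between macrophage diets with RBC, and averaging probe sets gave 0.0118 for Cd80 between macrophage diets without RBC. On leaving out each array, exposure of high-fat macrophages gave -0.175 to 0.31 for H2-Eb1, -0.12 to 0.0169 for Cd80 and -0.31 to 0.14 for Cd83, the interaction gave -0.21 to 0.24 for Cd83, and the macrophage diet difference with RBC gave -0.0745 to 0.0879 for Ciita. The cause of these changes was not tested. The replicate numbers were not taken as pairs. A replicate block over all groups left 8 genes lower in high-fat macrophages with RBC, in which Cd83 (0.033) took the place of Cd80 (0.05), and a block within each macrophage diet gave 9. The blocks changed no other call of the 10 genes.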

Other observations

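Class I presentation genes also differed by macrophage diet. Of 11 measured genes, 7 fell and 1 rose in unexposed high-fat against chow macrophages (median -0.52), where 5.82% and 8.12% of all genes did. With RBC 5 fell and none rose (median -0.26), where 2.65% and 2.2% of all genes did. Tap1, a subunit of the peptide transporter, read 6.28 and 6.63 with high-fat RBC, 6.43 and 6.44 with chow RBC, and 6.11 and 6.12 without RBC in high-fat macrophages, against 7.41 and 7.66, 7.36 and 7.27, and 7.84 and 7.71 in chow macrophages. All 6 high-fat arrays lay below all 6 chow arrays, with a difference of -1.66 ± 0.12 without RBC (limma adjusted p = 4.8e-07). The immunoproteasome genes Psmb8 (-0.82), Psmb9 (-0.83) and Psmb10 (-0.99) fell in the same comparison.

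Of 10 T and NK cell markers none was called in the macrophage diet comparisons, the exposure comparisons or their interaction. In these comparisons the share of all genes called in a given direction ran from 0.201% to 8.22%, so none of 10 says little. Of 10 dendritic cell markers 2 rose and 1 fell between macrophage diets without RBC (median -0.02), and 1 rose with exposure of chow macrophages. The shares of all genes were 8.12% higher and 5.82% lower without RBC, and 8.22% higher with that exposure. Calls this few say little about so short a list. Of 7 markers of resident large peritoneal macrophages 1 rose and 3 fell between macrophage diets without RBC (median -0.21). Gata6 rose (0.38 ± 0.12, limma adjusted p = 0.045). Timd4 (-0.67), Alox15 (-0.78) and Cxcl13, a B cell chemokine (-2.38 ± 0.29, limma adjusted p = 6.1e-05), fell. The unexposed high-fat arrays of Cxcl13 lay apart, at 4.53 and 5.79. With RBC 2 markers fell and none rose, against 2.65% of all genes called lower. With exposure of chow macrophages 2 fell and none rose, against 4.51% called lower. Of 2 measured monocyte markers, 1, Chil3, was lower between macrophage diets without RBC and rose with exposure of high-fat macrophages (1.275 ± 0.17, limma adjusted p = 0.0012).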
